A study of Mus musculus with 8 samples.

Results

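Sensory neuropeptide precursors outside the opioid family were followed in touch neurons of the mouse that had lost the transcription factor gene Bhlha9. The set was chosen by name and comprised 10 genes, Calca, Calcb, Tac1, Gal, Adcyap1, Nts, Npy, Sst, Nppb and Nmb, out of 55573 genes counted, and all 10 were found in the count table. The cells were C-LTMRs (C low-threshold mechanoreceptors), slowly conducting afferents of hairy skin that signal gentle touch, purified as GFP-positive cells by flow cytometry, with RNA sequenced from males and females separately. The 4 groups were adult male bhlha9 KO, male wild type (WT), female bhlha9 KO and female wild type mice, with 2 libraries each that the series describes as biological replicates. What drives GFP, how many animals went into a library and how the knockout was made are not given in the sources used here. Library names such as male KO1 give sex, genotype and replicate number.

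Neuropeptides are cut from larger precursors inside dense-core vesicles and act on G protein-coupled or guanylyl cyclase receptors after release. In dorsal root ganglia most of these genes mark other neurons than C-LTMRs: CGRP (from Calca and Calcb) and substance P (from Tac1) mark peptidergic nociceptors, the itch transmitter BNP (from Nppb) and somatostatin (from Sst) mark a class of pruriceptors, and galanin and neuropeptide Y are known in rodents to be induced after nerve injury. C-LTMRs are known instead for tyrosine hydroxylase (Th) and Fam19a4.

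The libraries held between 50919885 and 71956309 counts, and 3 counts, the floor used here, corresponded to between 0.0421 and 0.0587 CPM (counts scaled to library size). Such floors cover counting error only. Bhlha9 stood between 0.156 and 0.47 CPM in the 4 KO libraries and between 127 and 161 CPM in the 4 WT libraries, and Xist and Ddx3y separated females and males without overlap. Th stood between 2976 and 5359 CPM in all 8 libraries, and all 11 C-LTMR markers were detected in every group. The sorted RNA also held transcripts of other cells in amounts that differed between libraries, and those values are given beside the results they accompany. In such bulk RNA, fewer cells of a type and less RNA per cell cannot be told apart.

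The 10 genes covered a wide range of levels. Scaled by transcript length as well as library size (TPM), Calcb had the highest median over the 8 libraries (704 TPM), then Calca (594 TPM), Tac1 (162 TPM), Nmb (155 TPM), Gal (53.6 TPM) and Adcyap1 (4.63 TPM). Neighbours in this order overlapped in every case: Calcb stood above Calca in 4 of 8 libraries, Calca above Tac1 in 6, Tac1 above Nmb in 5, Nmb above Gal in 5 and Gal above Adcyap1 in 7. These 6 genes exceeded 3 counts in all 8 libraries. Npy did so in 4 libraries, Nts in 3, and Sst and Nppb in 1 library each. The last 2 genes did not pass the filter on low counts and were not tested, so 8 of the 10 entered the fits.

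**Figure D1:**
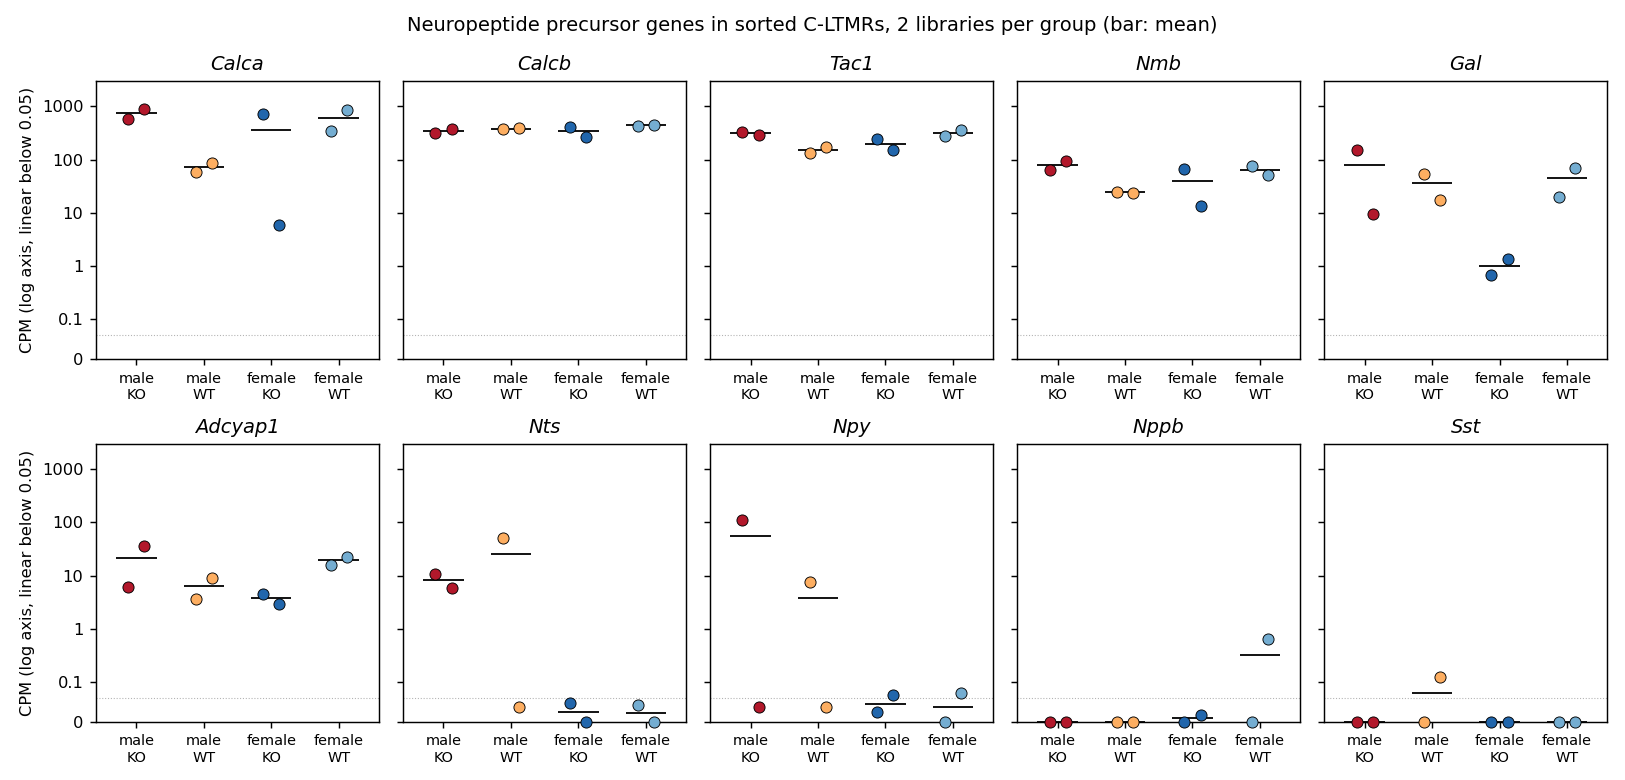
Level of each precursor gene in CPM (vertical axis, logarithmic above 0.05 and linear below) in male KO, male WT, female KO and female WT libraries. Each point is 1 library and each bar the mean of 2. Calcb stays between 272 and 457 CPM in all libraries, Calca spans from 5.94 to 910 CPM, and Nts and Npy exceed 1 CPM in male libraries only (Nts in 3, Npy in 2).

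Promoter sequence is shown for the precursor genes that the authors' deposited tables list as different between genotypes, except Tac1, whose window lies largely within the annotated gene. The Nmb window was shortened to 236 bases for the same reason, since its last bases lie in the gene. It is thus shorter than the windows of 250 bases with which it is compared. Each is RefSeq sequence of GRCm38.p6 upstream of the start, written 5′ to 3′ on the strand of the gene. Because the deleted gene encodes a basic helix-loop-helix factor, a class of proteins that binds E-boxes, the E-box CANNTG was searched (it reads the same on both strands) and stands in capitals. The Calca window is chr7:114636358-114636607 (minus strand), the Nmb window chr7:80905077-80905312 (minus), the Gal window chr19:3414545-3414794 (minus) and the Adcyap1 window chr17:93198767-93199016 (plus, the first of its listed starts).
Calca: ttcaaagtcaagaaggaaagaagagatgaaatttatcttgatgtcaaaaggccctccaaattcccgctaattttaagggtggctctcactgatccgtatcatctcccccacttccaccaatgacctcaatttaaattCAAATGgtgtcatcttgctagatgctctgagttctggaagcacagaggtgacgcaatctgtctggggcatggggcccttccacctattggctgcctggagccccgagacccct
Nmb: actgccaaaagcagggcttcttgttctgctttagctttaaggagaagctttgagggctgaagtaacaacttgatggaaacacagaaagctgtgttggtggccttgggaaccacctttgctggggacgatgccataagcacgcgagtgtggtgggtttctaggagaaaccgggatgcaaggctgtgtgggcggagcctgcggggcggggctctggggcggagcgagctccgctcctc
Gal: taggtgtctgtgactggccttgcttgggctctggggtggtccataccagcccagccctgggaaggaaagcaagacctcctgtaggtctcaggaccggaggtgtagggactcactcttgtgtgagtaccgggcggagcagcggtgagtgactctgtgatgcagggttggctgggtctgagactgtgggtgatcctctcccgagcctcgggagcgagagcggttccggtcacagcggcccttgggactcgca
Adcyap1: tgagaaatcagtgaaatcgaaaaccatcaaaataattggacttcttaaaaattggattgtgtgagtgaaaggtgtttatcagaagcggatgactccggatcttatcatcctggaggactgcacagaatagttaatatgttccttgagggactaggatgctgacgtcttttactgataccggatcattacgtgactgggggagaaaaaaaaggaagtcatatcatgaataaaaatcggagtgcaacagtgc
Calca held 1 match, of the form CAAATG, and the other 3 windows held none. Of 32851 promoter windows of 250 bases, 66.2% held at least 1 E-box, so the single match is what most promoters show. The cyclic AMP response element TGACGTCA, searched on both strands, which it also reads alike, was in none of these 4 windows and in 1.55% of all windows. Among the 9 precursor genes with an entry it was found in Sst alone. The Sst window, from 23890845 to 23891094, was not shortened and lies partly within the annotated gene, which ends at 23890958. Calcb had no entry. A match in letters is not a bound site.

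Calca and Calcb encode the alpha and beta forms of CGRP, a vasodilator peptide of nociceptors, and lie close together on chromosome 7 of GRCm38. Calca (ENSMUSG00000030669) runs from 114631478 to 114636357 on the minus strand and Calcb (ENSMUSG00000030666) from 114718643 to 114723365 on the plus strand. Calca also encodes calcitonin by alternative splicing, and counts per gene do not separate these products. The aligned files are named as holding unique reads, and reads that both related genes share may then be missing from both.

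Calca stood at 579 and 910 CPM in male KO libraries, against 59.4 and 88.4 CPM in male WT libraries. The groups did not overlap, with means of 744 ± 234 CPM in male KO and 73.9 ± 20.5 CPM in male WT (SD, n = 2 each). The estimate was 3.33 in log2 (SE 1.66) and did not pass (adjusted p = 1 by edgeR). In females Calca stood at 713 and 5.94 CPM in KO libraries, against 351 and 852 CPM in WT libraries. The 2 female KO libraries lay below and between the 2 female WT libraries, with means of 359 ± 500 CPM in female KO and 601 ± 355 CPM in female WT (SD, n = 2 each). The estimate was -0.74 in log2 (SE 1.52, adjusted p = 1 by edgeR). Without female KO2 the female value turned to 0.24, and without female KO1 to -6.66. It also turned without female WT2, to 0.032.

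Calcb, in contrast, stood at 313 and 374 CPM in male KO libraries, against 370 and 392 CPM in male WT libraries. In females it was 412 and 272 CPM in KO libraries, against 424 and 457 CPM in WT libraries. The male groups overlapped and the female KO libraries lay below female WT, with log2 fold changes of -0.15 (SE 0.22) in males and -0.37 (SE 0.22) in females (edgeR adjusted p = 1 for both). The highest Calcb library was 1.68 times the lowest, against 153 times for Calca. Per length, Calca was 1.39 and 1.83 times Calcb in male KO, 0.121 and 0.169 times in male WT, 1.30 and 0.0164 times in female KO, and 0.62 and 1.40 times in female WT libraries. The difference in behaviour of the paralogs is a description and was not tested.

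Tac1 (ENSMUSG00000061762, chromosome 6, from 7554879 to 7565834, plus strand) encodes the tachykinins substance P and neurokinin A. It stood at 334 and 286 CPM in male KO libraries, against 131 and 171 CPM in male WT libraries. In females it was 242 and 149 CPM in KO libraries, against 275 and 364 CPM in WT libraries. The genotypes did not overlap in either sex, as in 2.63% of tested genes with the same directions, higher in KO in males (log2 fold change 1.04, SE 0.29, unadjusted p = 0.00928) and lower in KO in females (-0.71, SE 0.29, unadjusted p = 0.0441), with an edgeR adjusted p of 1 in both. Its range over all libraries, 2.78 times, was narrow beside that of Calca.

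Nmb (ENSMUSG00000025723, chromosome 7, from 80902227 to 80905076, minus strand) encodes neuromedin B, a bombesin-like peptide of sensory neurons linked to itch and pain in mice. It stood at 62.7 and 95.5 CPM in male KO libraries, against 24.5 and 24.1 CPM in male WT libraries. The estimate in males was 1.70 in log2 (SE 0.68, unadjusted p = 0.0418, adjusted p = 1 by edgeR). In females it was 67.4 and 13.7 CPM in KO libraries, against 74.8 and 50.6 CPM in WT libraries (-0.63, SE 0.66, adjusted p = 1 by edgeR). The male groups were apart and the female groups overlapped. Without female KO2 the female value turned to 0.10. Exons of Nmb overlap those of Sec11a, and counting without strand placed reads of the shared stretch in both genes.

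Gal (ENSMUSG00000024907, chromosome 19, from 3409915 to 3414544, minus strand) encodes galanin, an inhibitory peptide of afferents. It stood at 0.685 and 1.33 CPM in female KO libraries, from 35 and 95 counts, against 20.1 and 68.6 CPM in female WT libraries. The groups did not overlap, with means of 1.01 ± 0.459 CPM in female KO and 44.4 ± 34.3 CPM in female WT (SD, n = 2 each). The estimate was -5.44 in log2 (SE 1.46, unadjusted p = 0.00801, adjusted p = 1 by edgeR). In males Gal was 149 and 9.56 CPM in KO libraries, against 54.1 and 17.5 CPM in WT libraries (1.15, SE 1.20, adjusted p = 1 by edgeR). The male groups overlapped, and without male KO1 the male value turned to -1.90.

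Adcyap1 (ENSMUSG00000024256, chromosome 17, from 93199017 to 93206537, plus strand) encodes PACAP, a peptide that acts through cyclic AMP. It stood at 4.58 and 2.89 CPM in female KO libraries, against 15.8 and 22.8 CPM in female WT libraries, again without overlap (-2.37 in log2, SE 0.88, unadjusted p = 0.0319, adjusted p = 1 by edgeR). In males it was 6 and 36.1 CPM in KO libraries, against 3.63 and 9.06 CPM in WT libraries (1.73, SE 0.86, adjusted p = 1 by edgeR). The male groups overlapped, and without male KO2 the male value turned to -0.098.

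**Figure D2:**
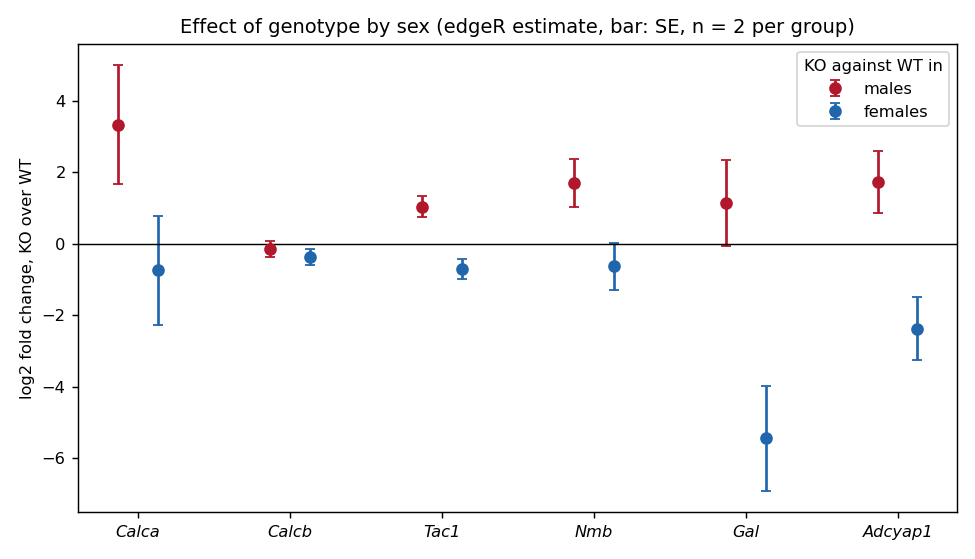
Log2 fold change of KO over WT (vertical axis) in males and in females for the 6 precursor genes above 3 counts in every library. The edgeR estimate is the point, and the SE derived from its test statistic is the bar. All but Calcb lie above 0 in males and all 6 lie below 0 in females, and Calcb stays nearest to 0 in both.

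Over all tested genes, 0 of the 10 precursor genes passed at an edgeR adjusted p below 0.05 in males or in females, where 0.00454% of the 22013 tested genes passed in each sex. At an unadjusted p below 0.05, edgeR gave 2 of the 10 in males, both higher in KO (2.05% of tested genes were higher at that level), and 3 in females, all lower in KO (1.9% of tested genes). DESeq2 on all 8 libraries called 0 in males (1.06% of its tested genes were called) and 1 in females, Gal, with an adjusted p of 0.0109 (1.13% called). Of the 10 genes, 3 had no overlap in males with KO above (14.5% of tested genes), and 4 had no overlap in females with KO below (15.1%). The labels do not say that libraries came from separate cultures or animals beyond calling them biological replicates, so p-values measure the spread between these libraries.

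The authors' deposited tables, which hold the genes past 5% for each sex, list 3 of these genes in males and 2 in females. They hold 150 genes in males, 140 with positive and 10 with negative fold changes, and 13 in females, 3 positive and 10 negative. The authors' deposited table for males gives Calca a log2 fold change of 2.71 (SE 0.29, adjusted p = 3.61e-17), Nmb 1.40 (SE 0.28, adjusted p = 0.000332) and Tac1 0.91 (SE 0.24, adjusted p = 0.0284). The authors' deposited table for females gives Gal -1.81 (SE 0.28, adjusted p = 4.24e-07) and Adcyap1 -1.25 (SE 0.28, adjusted p = 0.0155). Bhlha9 is negative in both of the authors' deposited tables, so positive values there mean higher in KO. DESeq2 run here on the 4 libraries of a sex called the same 3 genes in males (1.77% of its tested genes were called) and the same 2 in females (0.932%). In that fit Calca passed at an adjusted p of 3.62e-17, Nmb at 0.000193, Tac1 at 0.0167, Gal at 1.03e-12 and Adcyap1 at 0.00145. Of these 5 calls, DESeq2 on all 8 libraries kept that of Gal alone and edgeR kept none. The DESeq2 fits run here did not shrink fold changes toward no change. Within a sex they gave 3.33 for Calca, 1.70 for Nmb, 1.03 for Tac1, -5.44 for Gal and -2.37 for Adcyap1. These are larger in size than the deposited values. Whether the deposited values were shrunken was not determined, so this gap in size is not interpreted.

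The effect of genotype was next compared between the sexes, with positive values for a higher ratio of KO to WT in males. All 6 genes detected throughout had positive differences: 4.08 for Calca (SE 2.23), 0.22 for Calcb (SE 0.31), 1.74 for Tac1 (SE 0.41), 2.33 for Nmb (SE 0.95), 6.59 for Gal (SE 1.86) and 4.10 for Adcyap1 (SE 1.23), each in log2 (51.3% of tested genes were positive). Single libraries moved several of them: without female KO1 the difference was 9.99 for Calca and 3.89 for Nmb, without male KO1 it was 3.54 for Gal, and without male KO2 it was 2.26 for Adcyap1. By edgeR 0 of the 10 passed after adjustment, as did 0% of tested genes, with adjusted p of 0.980 for Tac1, Gal, Adcyap1 and Nmb. At an unadjusted p below 0.05, edgeR gave those 4 genes, all positive (2.75% of tested genes were positive at that level). DESeq2 on all 8 libraries called Tac1 (adjusted p = 0.00898) and Adcyap1 (adjusted p = 0.0352), and 1.28% of its tested genes. Gal missed there, with an adjusted p of 0.0504. With the sexes combined and sex as a term, edgeR gave 0 of the 10 at an adjusted p below 0.05 (0.00454% of tested genes passed) and 0 at an unadjusted p below 0.05 (3.56%), and DESeq2 also called 0 (0.76%). The combined log2 fold changes of the 6 genes lay between -2.05 for Gal and 1.29 for Calca, and moved with single libraries, from -3.85 to -0.33 for Gal and from 0.43 to 2.31 for Calca.

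The WT libraries of the sexes also differed in level. All 5 of Calca, Calcb, Tac1, Adcyap1 and Nmb had both male WT libraries below both female WT libraries (19.6% of tested genes were that way round), with log2 differences of male over female WT of -3.02 (SE 1.64), -0.21 (SE 0.22), -1.08 (SE 0.29), -1.61 (SE 0.85) and -1.36 (SE 0.67). For Gal the WT groups overlapped (-0.31, SE 1.19). By edgeR 0 of the 10 passed for males against females in WT (0% of tested genes did), and Tac1 and Nts were the 2 genes at an unadjusted p below 0.05, Nts higher, through male WT1 alone (2.44% of tested genes), and Tac1 lower (2%) in males. DESeq2 called the same 2, Tac1 at an adjusted p of 0.0483 and Nts at 0.0379, with 1.05% of its tested genes. These comparisons share the WT libraries with those of KO against WT, so they are not independent of them.

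Nts encodes neurotensin and Npy neuropeptide Y, and both were near the floor in most libraries. Nts (ENSMUSG00000019890, chromosome 10, from 102481756 to 102490486, minus strand) had 616 and 378 counts in male KO libraries, against 3237 and 2 counts in male WT libraries. In females it had 2 and 0 counts in KO libraries, against 2 and 0 counts in WT libraries. It was thus over the floor in 3 libraries, all male, and of both genotypes. Npy (ENSMUSG00000029819, chromosome 6, from 49822710 to 49829507, plus strand) had 6514 and 2 counts in male KO libraries, against 482 and 2 counts in male WT libraries. In females it had 1 and 4 counts in KO libraries, against 0 and 4 counts in WT libraries. Male KO1 and male WT1 alone exceeded 1 CPM of Npy, at 113 and 7.64 CPM. Each group of males held a library under the floor for Npy, as did male WT for Nts, so fold changes are not read for either gene.

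Genes known to be induced in injured sensory neurons were read in the same libraries. Sprr1a, a small proline-rich protein, stood at 75.3 and 18.8 CPM in male KO, 136 and 2.37 CPM in male WT, 0.117 and 0.112 CPM in female KO, and 0.141 and 0.0951 CPM in female WT libraries. Ecel1, a neuronal endopeptidase-like protein, stood at 13.5 and 9.87 CPM in male KO and 34.5 and 2.37 CPM in male WT libraries, and at most 0.014 CPM in females. The 3 libraries with Nts, in CPM 51.3 in male WT1, 10.7 in male KO1 and 5.83 in male KO2, came in the same order for Nts, Sprr1a and Ecel1. Sox11 shared that order within these 3 libraries, at 18.8, 11.7 and 7.11 CPM, but did not follow Nts over all libraries. Where Nts was under the floor, Sox11 was 15.1 CPM in female WT1, 11.3 CPM in female WT2 and 10.2 CPM in female KO2. These libraries and male WT2 lay above male KO2 in Sox11, and female KO1, at 6.70 CPM, lay below it. The other listed genes, Atf3, Jun and Gap43, did not share the order of Nts within the 3 libraries. In male WT1, KO1 and KO2, Atf3 was 207, 246 and 121 CPM, Jun 109, 245 and 228 CPM, and Gap43 53.8, 74.8 and 116 CPM. Atf3, an injury-induced transcription factor that dissociation can also induce, was present in every library, between 68 and 246 CPM, and highest in male KO1 and male WT1. Over the 6 injury-induced genes listed, the summed level was between 500 and 666 CPM in male KO, 170 and 558 CPM in male WT, 220 and 324 CPM in female KO, and 215 and 384 CPM in female WT libraries. Gal did not follow this order, at 68.6 CPM in female WT2, where Sprr1a was 0.0951 CPM. The part of injury in these levels was not tested. Of 4 markers of sympathetic neurons, which are known for Npy, Dbh, Slc6a2 and Hand2 had 0 counts in all 8 libraries. The remaining marker, Phox2a, was found in all 8, between 0.0159 CPM in male WT1 and 0.255 CPM in female KO1, with 0.139 CPM in male KO1.

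**Figure D3:**
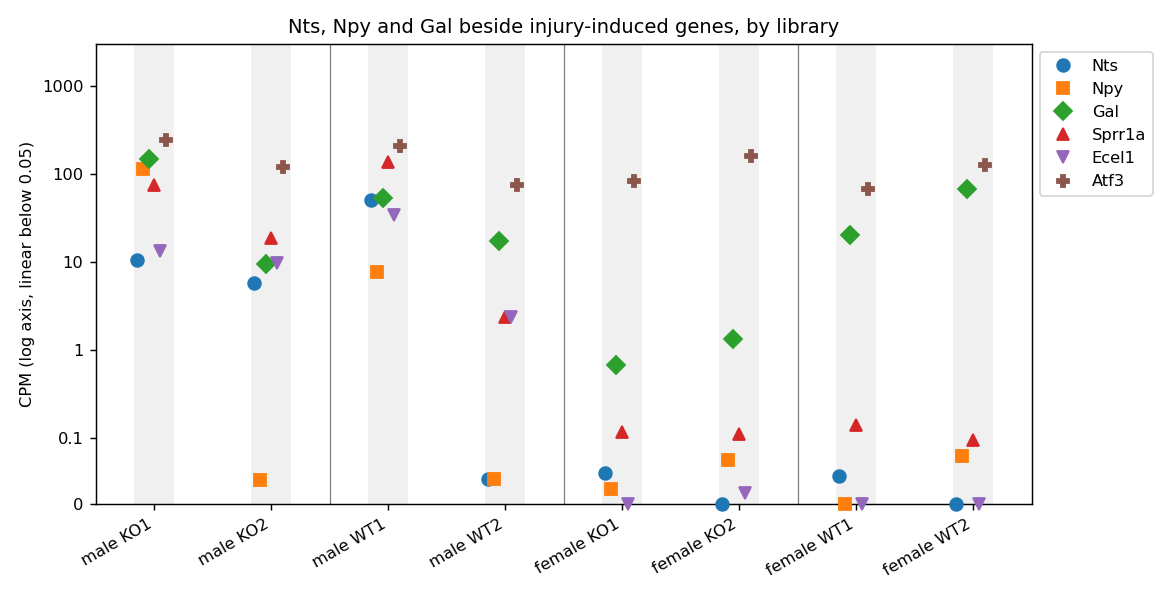
Nts, Npy and Gal beside the injury-induced genes Sprr1a, Ecel1 and Atf3, in CPM (vertical axis, logarithmic above 0.05 and linear below) in each of the 8 libraries; points are set slightly apart within a library. Nts lies above 1 CPM in male KO1, male KO2 and male WT1, the 3 libraries in which Sprr1a is highest.

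Sst and Nppb were at or near 0 counts. Sst (ENSMUSG00000004366, chromosome 16) had 0 counts in 7 libraries and 8 counts in male WT2. Nppb (ENSMUSG00000029019, chromosome 4) had 0 counts in 6 libraries, 1 count in female KO2 and 40 counts, or 0.634 CPM, in female WT2. Where the count was 0, levels of up to 0.0421 to 0.0587 CPM, depending on the library, could have been missed at this depth. Of the other genes of the pruriceptor class that Sst and Nppb mark, Il31ra stood between 11.3 and 15.6 CPM in all libraries, Osmr reached 10.2 CPM in male KO1 and Cysltr2 at most 0.372 CPM.

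Markers of other afferents also varied between libraries. The summed level of 9 peptidergic nociceptor markers, none of them a precursor gene described here, was 32.1 and 118 CPM in male KO, 12.2 and 15.2 CPM in male WT, 14.4 and 0.562 CPM in female KO, and 39.8 and 131 CPM in female WT libraries. Male KO2 and female WT2 were the highest libraries by this sum and by Calca, and female KO2 was the lowest by both. Female KO1, with 713 CPM of Calca, had a marker sum below that of male WT2. Of these 9 markers 7 were tested, and their mean centred log2 level was 0.80 in female KO1, above 0.52 in male WT2. Trpv1, the capsaicin receptor, was 5.04 and 40.9 CPM in male KO, 0 and 8.03 CPM in male WT, 3.82 and 0.0562 CPM in female KO, and 10.8 and 46.1 CPM in female WT libraries. In males 6 of the 7 tested peptidergic markers had positive fold changes (median 2.51) and in females 2 of 7 (median -1.52), while 51.9% and 49% of all tested genes were positive. At 0 counts in both libraries of a group were Sstr2 and Bmpr1b in male KO, Sstr2 and Oprk1 in male WT and in female KO, and Smr2, Oprk1 and Chrna7 in female WT.

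Female KO2, the library with the lowest Calca, Calcb, Nmb and Adcyap1, also had the lowest Trpv1 of the female libraries and the highest summed C-LTMR markers of all 8, at 9854 CPM, against 6023 to 8991 CPM in the other libraries. In male KO the C-LTMR markers summed to 6023 and 8241 CPM, against 8846 and 8930 CPM in male WT, with 1 of 11 fold changes positive (median -0.38). In female KO they summed to 8119 and 9854 CPM, against 8991 and 7574 CPM in female WT, with 10 of 11 positive (median 0.18). Myelinated afferent markers summed to 2456 and 706 CPM in male KO, against 555 and 404 CPM in male WT, with 11 of 12 tested positive (median 3.03). The 13 nonpeptidergic and pruriceptive markers summed to 241 and 570 CPM in male KO, against 203 and 232 CPM in male WT. Nonpeptidergic and pruriceptive markers were positive in 9 of 11 tested in males (median 1.93) and in 6 of 11 in females (median 0.036). Glial markers summed to 5753 and 5957 CPM in male KO, against 5860 and 3813 CPM in male WT, with overlapping sums but 10 of 12 tested markers positive (median 1.08). In females the myelinated sums were 660 and 552 CPM in KO, against 569 and 532 CPM in WT, and the glial sums 3513 and 6205 CPM in KO, against 5308 and 6027 CPM in WT. The myelinated markers were positive in 5 of 12 in females (median -0.093) and the glial markers in 1 of 12 (median -0.45). Vascular and fibroblast markers summed to 58.9 and 16.5 CPM in male KO, against 12.6 and 2.92 CPM in male WT, and to 4.78 and 8.64 CPM in female KO, against 29 and 47.2 CPM in female WT. These sums did not overlap in either sex and went in opposite directions, as Tac1 did, with 6 of 7 tested markers positive in males (median 3.84) and 2 of 7 in females (median -4.07). Immune markers stayed at or below 26.5 CPM in sum, with 4 of 6 positive in males (median 0.12) and 3 of 6 in females (median 0.098). The part of other cells in the precursor levels was not tested.

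**Figure D4:**
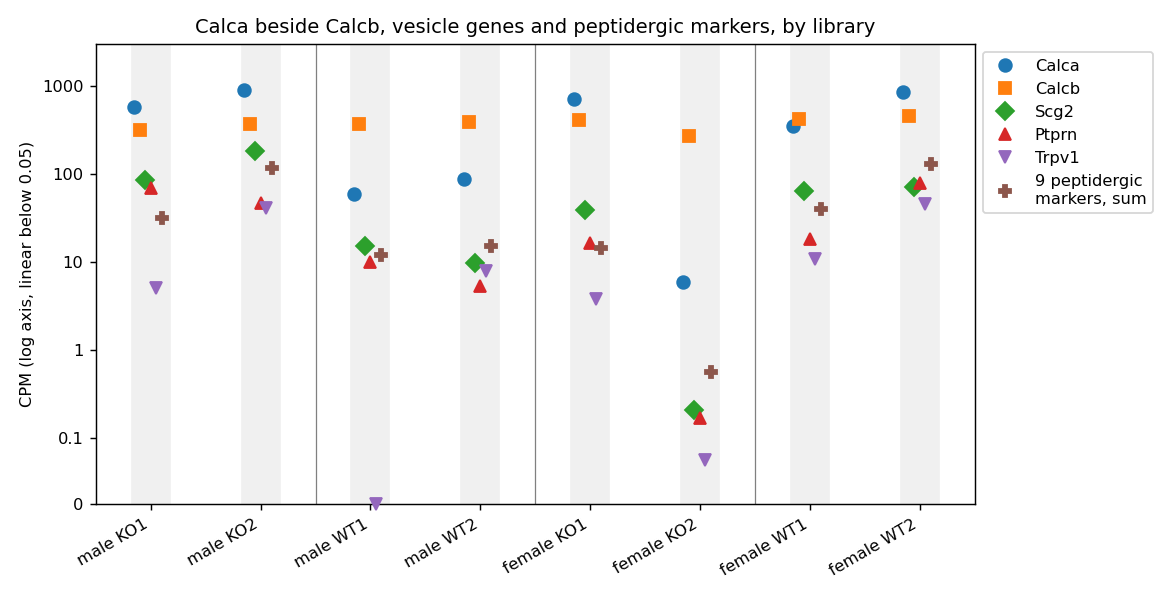
Calca and Calcb beside the vesicle genes Scg2 and Ptprn, the nociceptor gene Trpv1 and the sum of 9 peptidergic markers, in CPM (vertical axis, logarithmic above 0.05 and linear below) in each of the 8 libraries. In female KO2 Calca stands at 5.94 CPM and Calcb at 272 CPM, and the marker sum is at its lowest there, 0.562 CPM.

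Genes with the most similar profiles were sought for Calca, Tac1 and Gal among 11850 other genes with a mean of at least 5 CPM, by the root mean square difference of centred log2 CPM over the 8 libraries. For Calca these were Slc29a4 (difference 0.80), a monoamine transporter, and the vesicle genes Scg2 (0.88) and Ptprn (0.88), against an SD of 2.55 for Calca itself. For Tac1 they were Errfi1 (0.20), Lipt2 (0.22) and Gm7332 (0.23), against an SD of 0.55. For Gal they were Etv1 (1.15), a transcription factor of myelinated afferents, Plekha4 (1.29) and Faim2 (1.33), against an SD of 2.70. All profiles share libraries and their scaling, and likeness over 8 libraries is a description.

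Among 19 genes of peptide maturation and dense-core vesicle cargo, 18 were tested and 0 passed by edgeR in either sex, with 1 at an unadjusted p below 0.05 in males, higher in KO (2.05% of tested genes), and 2 in females, lower in KO (1.9%). The median log2 fold change was 0.16 in males and -0.05 in females (0.02 and 0 over all tested genes), with 11 and 6 of the 18 positive (51.9% and 49% of tested genes). KO was above WT without overlap for 7 of them in males (14.5% of tested genes) and below for 2 (14.5%), and in females it was above for 1 (14.2%) and below for 4 (15.1%). Pcsk2, the prohormone convertase PC2 that cuts precursors in the vesicle, stood at 27.0 and 33.9 CPM in male KO libraries, against 7.25 and 6.98 CPM in male WT libraries. In females Pcsk2 stood at 13.2 and 9 CPM in KO libraries, against 26.3 and 21.0 CPM in WT libraries. The log2 fold change was 2.10 in males (SE 0.33, unadjusted p = 0.000377) and -1.10 in females (SE 0.32, unadjusted p = 0.0108), with an edgeR adjusted p of 1 for both. DESeq2 on all 8 libraries called Pcsk2 in males (adjusted p = 2.48e-07) and not in females (0.0613).

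Scg2, a granin that is also a vesicle cargo and peptide precursor, stood at 85.2 and 184 CPM in male KO libraries, against 15.5 and 9.70 CPM in male WT libraries (log2 fold change 3.42, SE 1.67). In females it was 39.5 and 0.211 CPM in KO libraries, against 63.9 and 70.8 CPM in WT libraries (-1.77, SE 1.57, with -0.78 without female KO2 and -8.31 without female KO1). Ptprn, the vesicle membrane protein IA-2, stood at 69.8 and 46.7 CPM in male KO libraries, against 10.1 and 5.39 CPM in male WT libraries (2.91, SE 1.61). In females it was 16.6 and 0.169 CPM in KO libraries, against 18.5 and 78.7 CPM in WT libraries (-2.54, SE 1.58, with -8.15 without female KO1, -1.55 without female KO2 and -1.15 without female WT2). Both genes were above in male KO and below in female KO without overlap, as Tac1 was (4.77% of tested genes had no overlap and opposite directions in the 2 sexes), and had an edgeR adjusted p of 1 in both sexes. Furin, a convertase of the Golgi, differed the other way in males, at 17.6 and 22.5 CPM in KO against 29.5 and 40.9 CPM in WT libraries (-0.82, SE 0.36, edgeR adjusted p = 1), and overlapped in females (0.066, SE 0.35). Of the general machinery, Cpe, the carboxypeptidase that trims cut peptides, lay between 632 and 1144 CPM and Scg3 between 1016 and 1553 CPM in all libraries.

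Receptors for these peptides were read next. Of 31 receptor genes, 17 were tested and 0 passed by edgeR in either sex, with 0 at an unadjusted p below 0.05 in males and 1 in females, higher in KO (1.9% of tested genes), and DESeq2 called 0 in both (1.06% and 1.13% of its tested genes). The median log2 fold change was 0.79 in males and 0.08 in females (0.02 and 0 over all tested genes). Of the 17, 10 and 9 were positive (51.9% and 49% of tested genes). Several of the 17, such as Calcrl, Adcyap1r1, Vipr2 and Sstr1, had 0 CPM in most libraries, so their fold changes rest on few libraries. KO was below WT without overlap for 4 of the 17 in males (14.5% of tested genes) and 2 in females (15.1%), and above without overlap for 1 in males (14.5%) and 0 in females (14.2%). Ramp2, a subunit that pairs with the calcitonin receptor-like receptor, was between 132 and 182 CPM in all libraries, while that receptor itself, Calcrl, was at most 0.808 CPM. Ramp1, another such subunit, stood at 0.0693 CPM in male KO1, 1.20 CPM in female WT1 and 0 CPM in all other libraries. It did not pass the filter on low counts. Galr1, a galanin receptor, had 0 and 128 counts in male KO, 0 and 74 counts in male WT, 0 and 0 counts in female KO, and 14 and 628 counts in female WT libraries. Sort1, a sorting receptor that binds neurotensin, was 15.5 and 11.7 CPM in male KO against 16.8 and 16.4 CPM in male WT libraries, and 8.48 and 28.3 CPM in female KO against 14 and 3.93 CPM in female WT libraries. Its log2 fold changes were -0.29 (SE 0.73) in males and 1.04 (SE 0.73) in females. Npy1r, a neuropeptide Y receptor, overlapped in both sexes (0.96, SE 0.84 in males and -0.093, SE 0.83 in females). Ntsr1, a neurotensin receptor, averaged 0.482 ± 0.387 CPM in male KO against 1.64 ± 0.222 CPM in male WT libraries and 0.778 ± 1.06 CPM in female KO against 1.83 ± 0.959 CPM in female WT libraries (SD, n = 2 each), with log2 fold changes of -1.76 (SE 1.67) and -1.23 (SE 1.64). The edgeR adjusted p of Sort1, Npy1r and Ntsr1 was 1 in both sexes.

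Of 27 other peptide precursor genes, 9 were tested and 0 passed by edgeR in either sex, with 1 at an unadjusted p below 0.05 in males, higher in KO (2.05% of tested genes), and 0 in females. DESeq2 called 0 in both (1.06% and 1.13% of its tested genes). The median log2 fold change was -0.65 in males and -0.79 in females (0.02 and 0 over all tested genes). Of the 9, 4 were positive in each sex (51.9% and 49% of tested genes). Cartpt, the precursor of CART peptides, stood at 24.8 and 3.14 CPM in male KO libraries, against 1.03 and 2.81 CPM in male WT libraries, so that male KO1 carried most of the difference (2.86, SE 1.12, and 0.71 without male KO1). In females Cartpt was 10.3 and 4.71 CPM in KO libraries, against 6.76 and 19.7 CPM in WT libraries (-0.82, SE 1.04). Nmu, the precursor of neuromedin U, stood at 2.74 and 2.84 CPM in male KO libraries, against 5.12 and 3.6 CPM in male WT libraries (-0.65, SE 0.56). In females Nmu was 4.80 and 6.45 CPM in KO libraries, against 2.98 and 1.74 CPM in WT libraries (1.25, SE 0.57), so its direction in each sex was opposite to that of Tac1. Bdnf, a neurotrophin stored in vesicles, was 25.1 and 13.9 CPM in male KO against 6 and 5.38 CPM in male WT libraries (1.78, SE 0.99), and overlapped in females (0.068, SE 0.96). Pthlh, the precursor of parathyroid hormone-related peptide, had 455 and 2 counts in male KO, 25 and 0 counts in male WT, 0 and 0 counts in female KO, and 125 and 0 counts in female WT libraries. The edgeR adjusted p was 1 in both sexes for Cartpt, Nmu and Bdnf.

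The summed level of the 10 precursor genes per length was 2550 and 2615 TPM in male KO libraries, against 1227 and 1131 TPM in male WT libraries. In females the sum was 1959 and 646 TPM in KO libraries, against 1571 and 2432 TPM in WT libraries. Calcb made up 21.2% and 27.7% of that sum in male KO, 56.1% and 66.2% in male WT, 35.9% and 76.2% in female KO, and 44.8% and 31.9% in female WT libraries. In the library with the least Calca, female KO2, Calcb was thus the main precursor transcript, with Tac1 second at 15.5% of the sum and Calca at 1.25%.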

How the data were processed

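The deposited count table holds read counts per gene for 8 libraries, which featureCounts 1.6.1 made, per the file headers, from exons in the GRCm38 annotation of Ensembl (release 97), ignoring strand and giving a read to each gene it overlaps. The submitters' processing notes also name DESeq2 1.14.1, bcl2fastq 2.17.1.14 and Subread 1.6.4, but no aligner. Libraries were amplified from small amounts of polyadenylated RNA (SMART-Seq v4, Nextera XT) without molecular identifiers, per the labels' protocols. The authors' deposited tables hold, per the file headers, a mean normalized signal, a log2 fold change with its error (log2), a test statistic (score) and p-values, for genes past 5% only.

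Symbols came from GENCODE. Genes were filtered with filterByExpr (22013 kept), scaled by TMM (factors from 0.979 to 1.02) and tested with the quasi-likelihood test of edgeR 4.0.16 in R 4.3.3 on 4 groups, without a replicate block; KO against WT over both sexes had terms for both. Calls were made below an adjusted p of 0.05 (Benjamini-Hochberg, all tested genes together). The SE of each edgeR estimate was derived as the absolute log2 fold change divided by the square root of its F statistic. TPM used the lengths in the table. The alternatives were DESeq2 1.42.0, its size factors, no filter, a replicate block, fits within 1 sex or in WT, and leaving out each library. DESeq2 within 1 sex was added after the authors' tables were seen. The precursor genes, the lists and the tests were chosen with earlier results of these data known. From each list, up to 4 genes averaging 1 CPM or more were named, by the smallest edgeR p in either sex. Ramp1, Ramp2, Calcrl, Adcyap1r1, Vipr2, Sstr1, Cpe, Scg3 and Crh were named after their values were seen. Some marker genes are not reported here and are in no marker sum.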

Additional observations from a re-analysis of the deposited data

Results flagged for a closer look

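Of the genes read here, 8 precursor genes, 17 receptor genes, 18 genes of peptide maturation and vesicle cargo and 9 other precursor genes were tested. Among these, Tac1 and 4 genes of the peptide lists had both KO libraries on one side of both WT libraries in males. In females the KO libraries lay on the other side, a pattern that 4.77% of all tested genes showed. The 4 list genes had been named for their small edgeR p, which favours groups that lie apart. The difference between the sexes in the log2 fold change of KO over WT was 1.74 for Tac1 (SE 0.41), 3.19 for Pcsk2 (SE 0.45), 5.19 for Scg2 (SE 2.28), 5.45 for Ptprn (SE 2.26) and -1.90 for Nmu (SE 0.79). Without female KO1 the difference was 11.72 for Scg2 and 11.06 for Ptprn. By edgeR each of these differences had an adjusted p of 0.980, and DESeq2 on all 8 libraries passed Tac1 (adjusted p = 0.00898) and Pcsk2 (adjusted p = 5.70e-09) but not Scg2 (0.502), Ptprn (0.418) or Nmu (0.312).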

How the results depend on the processing

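The number of genes called depended on the test and on which libraries shared the estimate of spread, while the direction of most fold changes did not. DESeq2 on all 8 libraries called 209 genes in males, 230 in females, 276 for the difference between the sexes, 168 over both sexes and 200 for males against females in WT, where edgeR called 1, 1, 0, 1 and 0. DESeq2 on the 4 libraries of a sex called 376 in males and 174 in females. edgeR on the 4 libraries of a sex called 0 in each. For males against females in WT edgeR called 3 genes without the filter, and between 0 and 1 when a library was left out (1 without female KO1 or female KO2). Of the 10 precursor genes DESeq2 on all libraries called 1 in females, 2 for the difference between the sexes and 2 in WT, and DESeq2 within a sex called 3 in males and 2 in females.

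Over the tested genes, same-numbered libraries did not deviate together. Correlations of deviations between pairs of groups lay from -0.102 between male WT and female KO to 0.109 between male KO and female KO. They were -0.014 between male KO and male WT and 0.0015 between female KO and female WT. The numbers were therefore not taken to pair the libraries, although such correlations cannot exclude a shared step that affected few genes. With a replicate block, edgeR called 0 genes in males and 0 in females, and the difference between the sexes for Ntsr1 was 0.78, against -0.53 without it. No other of the 61 fold changes and differences refitted with the block turned.

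Of 804 fold changes recomputed, 777 kept their direction. Many of these refits kept every library of the compared groups, so this share overstates how stable the directions were. Leaving out a library turned 26 fold changes, against 462 kept, and the other settings turned 1. Leaving out 1 library at a time, fold changes in males ranged from -1.90 to 2.17 for Gal and -0.098 to 2.51 for Adcyap1. For Npy they ranged from -6.87 to 10.71. These ends come from fits with 1 group at 2 counts and are no measured reversal. In females they ranged from -1.10 to -0.40 for Tac1, -0.70 to -0.10 for Calcb, -6.66 to 0.24 for Calca, -2.19 to 0.10 for Nmb, -0.085 to 2.23 for Sort1, -1.65 to 0.64 for Npy1r, -0.27 to 0.49 for Furin, -1.49 to 0.15 for Cartpt and -0.82 to 2.75 for Bdnf. Differences between the sexes ranged from -0.049 to 0.54 for Calcb, -1.74 to 4.16 for Ntsr1 and -0.97 to 2.59 for Bdnf. Over both sexes they ranged from -0.13 to 0.50 for Tac1, -1.39 to 0.55 for Adcyap1 and 0.18 to 1.11 for Nmb, and in WT from -1.34 to 0.83 for Gal. A lone library left in a group was assumed to vary like the others. Causes were not tested. With 2 libraries a group, precision is limited by the spread between libraries more than by depth, except for Sst, Nppb, Nts and Npy near the floor.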

Other observations

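Crh, the precursor of corticotropin-releasing hormone and a member of the list of other peptide precursors, was singled out after its values were seen. It stood at 2.53 and 4.22 CPM in male KO libraries, at 19.6 and 0 CPM in male WT libraries, at 0 in both female KO libraries and at 0.0176 and 0 CPM in female WT libraries. The 3 libraries in which it exceeded 1 CPM were male KO1, male KO2 and male WT1, the same 3 in which Nts did, and both were highest in male WT1. Nts and Crh differed in which male KO library was higher.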
